A study of Mus musculus with 19 samples.

Results

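Heme released from senescent or damaged erythrocytes is bound, taken up and degraded by a small set of genes, and 8 of them were followed here: *Spic*, *Hmox1*, *Hmox2*, *Blvra*, *Blvrb*, *Hp*, *Hpx* and *Cd163*, out of 55740 genes listed in any of 3 tables of mouse RNA-Seq. They were chosen by symbol as genes of heme recycling and hemoglobin scavenging, and the set was picked because *Spic* was higher in inguinal white adipose tissue (iWAT) of MCK-Musclin mice, so its iWAT values are a description and carry no test. MCK-Musclin mice carry the coding sequence of *Musclin* (listed as *Ostn*), a secreted muscle peptide, under control of the promoter of muscle creatine kinase (MCK), a gene of skeletal muscle. Which founder line was used is not given in the sources used here. The genotype libraries came from male MCK-Musclin mice and wild-type (WT) controls, 5 months old on a C57BL/6J background, all of them kept at 8 °C for 1 week. There were 3 libraries per genotype from iWAT and 3 from interscapular brown adipose tissue (BAT). The labels do not say whether same-numbered libraries of iWAT and BAT came from the same mouse. Replicate numbers were not treated as pairs in the main comparison. No warm-housed mice were analysed here, so every genotype value below is one in the cold. A separate table held 1 library each from 7 tissues of chow-fed C57BL/6J WT mice: liver, small intestine, brain, heart, tibialis anterior muscle, and white and brown adipose.

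Macrophages of the splenic red pulp engulf old erythrocytes, and the transcription factor SPIC is needed for their development; in monocytes and macrophages heme itself induces *Spic* by relieving repression by BACH1. Heme oxygenases open the heme ring to biliverdin, iron and carbon monoxide, and biliverdin reductases turn biliverdin into bilirubin. In plasma, haptoglobin captures free hemoglobin for uptake by the macrophage receptor CD163, and hemopexin captures free heme for uptake by LRP1.

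All values are FPKM, the fragments of a gene scaled by its exon length and by the mapped fragments of its library, so levels can be compared between genes on that scale. The tables were normalized separately, and levels from different tables stand side by side only. FPKM summed to between 364710 and 384104 per iWAT library, between 676362 and 720852 per BAT library and between 393682 and 711437 per tissue. Steps between low values put the depth of the BAT libraries between 0.89 and 1.11 times that of WT library 1, while the depth in iWAT is unknown. *Ostn* was at 0 in every WT library of BAT and at 30.3 to 37.9 FPKM in the MCK-Musclin libraries, and in iWAT it reached at most 0.225 in WT mice and was at 0, 5.17 and 4.21 in MCK-Musclin mice 1 to 3. Some libraries stood apart from their group. BAT MCK-Musclin library 1 had a summed FPKM of 158 over 12 macrophage genes, against 59.0 to 76.3 in the other 5, and iWAT WT library 3 had 2139 over 6 skeletal muscle genes, against 5.95 to 403 in the others. Fewer cells of a type and less RNA per cell cannot be told apart in such bulk samples.

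The start of *Spic* is shown because the gene is the one heme-induced transcription factor of the set. The gene lies on the minus strand of chromosome 10 of GRCm38 from 88674772 to 88685015, and no exon of another gene overlaps its exons. The 250 bases before its RefSeq start site (GRCm38.p6, chr10:88683024-88683273, minus strand) are printed 5′ to 3′. Capitals mark TGCTGAG, one part of the element that BACH1 and NFE2L2 bind together with small Maf proteins.
Spic: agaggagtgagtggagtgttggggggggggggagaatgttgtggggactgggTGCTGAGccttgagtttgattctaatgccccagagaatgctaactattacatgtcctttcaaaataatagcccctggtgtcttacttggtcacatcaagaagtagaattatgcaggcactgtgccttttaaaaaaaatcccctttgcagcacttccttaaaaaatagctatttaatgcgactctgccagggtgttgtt
The match lies 198 to 192 bases before the start site on the strand printed. TGCTGAG was found on either strand in 6.21% of all 32851 windows of that length in the RefSeq table. Neither GAGGAA, the purine-rich box bound by the Spi family and present in 23.3% of windows, nor TGACNNNGC, a core of the antioxidant response element present in 10.2%, was found in it. The annotated gene reaches further upstream, to 88685015, so the printed window lies inside the gene span and before the start site of a shorter RefSeq transcript. A match is a description of letters and no evidence of binding. Of the 8 genes, 6 had a window in the table, and the other 2 are *Hmox1* and *Hp*.

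White adipose tissue had the highest FPKM of 6 of the 8 genes among the 7 tissues, and liver had the highest of the other 2, *Blvrb* and *Hpx*. Over all 18327 genes with an FPKM of at least 1 in some tissue, white adipose was the highest tissue for 20.2% and liver for 8.18%. *Hpx* and *Cd163* were at least 4 times higher in their highest tissue than in the next, with 0.1 added to each FPKM, as were 26.2% of all those genes. With 1 library per tissue, none of these differences has a replicate check.

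*Spic* was low throughout. It had 1.59 FPKM in white adipose, 0.527 in liver, 0.298 in small intestine, 0.257 in heart and 0.0305 in brown adipose, and it is listed at 0 in tibialis anterior muscle and brain. With 0.1 added, white adipose was 2.70 times liver, a ratio that fell to 1.70 with 1 added and became 2.99 with 0.01 added and 3.73 after rescaling to TPM. Other genes of the hand-written list for iron-recycling macrophages were divided between the same tissues. *Cd5l*, which encodes a macrophage-secreted scavenger protein, had 0.797 FPKM in white adipose and 53.5 in liver, and the scavenger receptor gene *Marco* had 2.13 and 7.60. *Vcam1*, an adhesion molecule of red pulp macrophages and of endothelium, was highest in white adipose at 12.0 and had 4.63 in liver, and *Hmox1*, on the same list, was also highest in white adipose.

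*Hmox1*, the inducible heme oxygenase (chromosome 8, 75093621 to 75100589), had 56.7 FPKM in white adipose, 18.8 in liver and 10.7 in brown adipose. Heart, muscle, brain and small intestine lay between 4.42 and 7.19. *Hmox2*, the constitutive heme oxygenase (chromosome 16, 4726361 to 4766742), varied least, between 26.1 FPKM in small intestine and 49.9 in white adipose, with brain at 37.4 and heart at 37.1. Its exons overlap those of *Cdip1* on the other strand, and alignment without strand could mix the reads of both. On the FPKM scale *Hmox1* exceeded *Hmox2* in white adipose alone among the 7 tissues.

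The biliverdin reductases differed in where they were highest. *Blvra* (chromosome 2, 127070665 to 127097084) had 32.5 FPKM in white adipose and 28.4 in brown adipose, followed by small intestine at 20.2 and liver at 14.7. *Blvrb*, which also reduces flavins (chromosome 7, 27447978 to 27466144), had 63.1 FPKM in liver, 32.0 in white adipose and 18.6 in brown adipose. Its lowest tissue was brain at 1.61, and that of *Blvra* was muscle at 5.45. *Blvrb* was at 16.3 FPKM or above in liver, gut and fat and at 3.68 or below in heart, muscle and brain.

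Scavenging genes set liver apart from fat most clearly. *Hp* (chromosome 8, 109575128 to 109579172) had 1057 FPKM in white adipose, 908 in liver and 277 in brown adipose, and from 0.0437 in brain to 2.44 in muscle elsewhere. *Hpx* (chromosome 7, 105591613 to 105600137) had 1120 FPKM in liver and at most 0.691, in white adipose, in any other tissue. Liver thus had both plasma carriers, whereas the adipose libraries had the hemoglobin carrier almost alone. *Cd163* (chromosome 6, 124304656 to 124330527) had 45.2 FPKM in white adipose, 6.32 times liver with 0.1 added, where it had 7.07. Brown adipose followed at 4.45, and brain was lowest at 0.433.

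**Figure D1:**
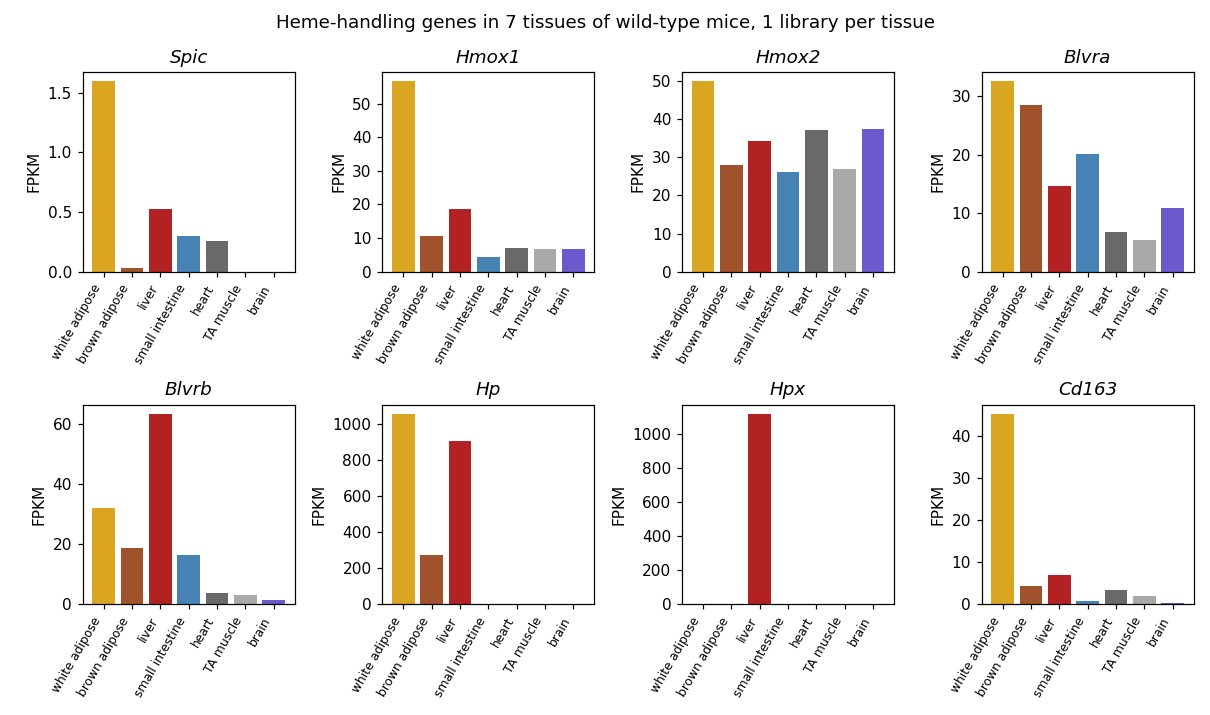
FPKM of the 8 genes in 7 tissues of WT mice, 1 library per tissue, each panel on its own linear axis from 0 (TA, tibialis anterior). White adipose has the tallest bar for 6 genes, liver for *Blvrb* (63.1) and *Hpx* (1120).

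Other genes of the route were mostly highest in liver or gut. Over all genes with an FPKM of at least 1 in some tissue, the highest tissue was liver for 8.18% and small intestine for 27.1%. It was white adipose for 20.2% and brown adipose for 5.72%. Of 9 heme synthesis genes, 8 had their highest FPKM in liver, where *Alas1*, the rate-limiting enzyme outside the erythroid lineage, reached 607 against 199 in white adipose. Of 9 genes of heme uptake and iron export, 3 were highest in white adipose, 3 in small intestine, 2 in liver and 1 in brown adipose. The iron exporter *Slc40a1* had 61.6 FPKM in small intestine and 4.55 in white adipose. Of 5 genes that conjugate or carry bilirubin, 4 were highest in liver, and *Ugt1a1*, which conjugates bilirubin, had 83.7 FPKM in liver and 0.332 in white adipose. Of 10 acute phase genes, 9 were highest in liver. The exception was *Serpina3n*, at 124 FPKM in white adipose and 123 in liver.

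The genes whose log2(FPKM + 1) followed a member most closely over the 7 tissues were found among the same 18327 genes, and with 7 points from 1 library each they are given as a description. For *Cd163* they were *Folr2*, a marker of resident macrophages (r = 0.990), *Col5a3* (r = 0.977) and *Scara5* (r = 0.974). *Hp* was followed by *Klb*, a fibroblast growth factor co-receptor of liver and fat (r = 0.992), *Gm38079* (r = 0.987) and *0610043K17Rik* (r = 0.981). *Hmox1* was followed by *Orm3* (r = 0.985), *Sult5a1* (r = 0.976) and *Eif2b3* (r = 0.974). The nearest to *Spic* were *Appbp2os* (r = 0.978), *Tlr8*, an endosomal RNA sensor (r = 0.977), and *Gm24523* (r = 0.964), at values that all rest on a few FPKM.

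In cold-exposed iWAT *Spic* had 3.26, 7.37 and 1.55 FPKM in WT mice 1 to 3 and 17.0, 11.5 and 15.5 in MCK-Musclin mice 1 to 3. The lowest MCK-Musclin library lay above the highest WT library, and the WT libraries spread more than 4-fold among themselves. The means were 4.06 ± 2.99 and 14.6 ± 2.80 (SD, n = 3), a ratio of 3.61, and the difference was 1.78 with an SE of 0.40 on the log2(FPKM + 1) scale. This is the difference on which the genes were chosen. It was lowest, at 1.37, when WT library 3 was left out and highest, at 2.23, when WT library 2 was. The groups did not overlap in any of the 15 alternatives, which for most of them adds nothing. Groups that are apart stay apart when a library is left out or the pseudocount, filter, block or trend changes. Among the 12197 genes of the iWAT table with a mean FPKM of at least 1, the groups did not overlap with MCK-Musclin higher for 17.9% and with MCK-Musclin lower for 5.44%.

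The enzymes of heme degradation did not separate the genotypes in the way *Spic* did. *Hmox1* had 56.6, 53.3 and 43.5 FPKM in WT and 72.7, 49.5 and 68.7 in MCK-Musclin libraries. MCK-Musclin library 2 fell among the WT libraries, the log2 difference was 0.30 (SE 0.17), and without that library the groups did not overlap at 0.47. *Hmox2* had 50.5, 47.1 and 45.9 against 51.7, 50.6 and 73.4, a log2 difference of 0.27 (SE 0.15). Its groups were just apart, but overlapped after rescaling to TPM or median-ratio scaling. Apart from *Spic*, on which the set was chosen, *Hmox2* was the 1 of the other 6 listed members whose groups did not overlap, beside a background of 17.9% of all genes with MCK-Musclin higher, and nothing is read from that count.

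*Blvra* had 36.5, 32.1 and 31.5 FPKM in WT and 36.5, 38.2 and 40.7 in MCK-Musclin libraries, a log2 difference of 0.20 (SE 0.10). *Blvrb* had 52.4, 49.9 and 55.7 against 61.4, 50.0 and 69.2, a log2 difference of 0.18 (SE 0.13). The genotypes overlapped for both reductases. *Hp* had 242, 207 and 329 FPKM in WT and 218, 302 and 238 in MCK-Musclin libraries, with means of 259 ± 62.7 and 253 ± 44.3 (SD, n = 3). *Cd163* had 23.2, 45.5 and 49.5 against 29.9, 33.1 and 39.0, a log2 difference of -0.14 (SE 0.27) that turned to 0.05 without WT library 3 and, without WT library 1, to -0.48 with groups that no longer overlapped. Both scavenging genes overlapped between genotypes. *Hpx* is not listed in the iWAT table.

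**Figure D2:**
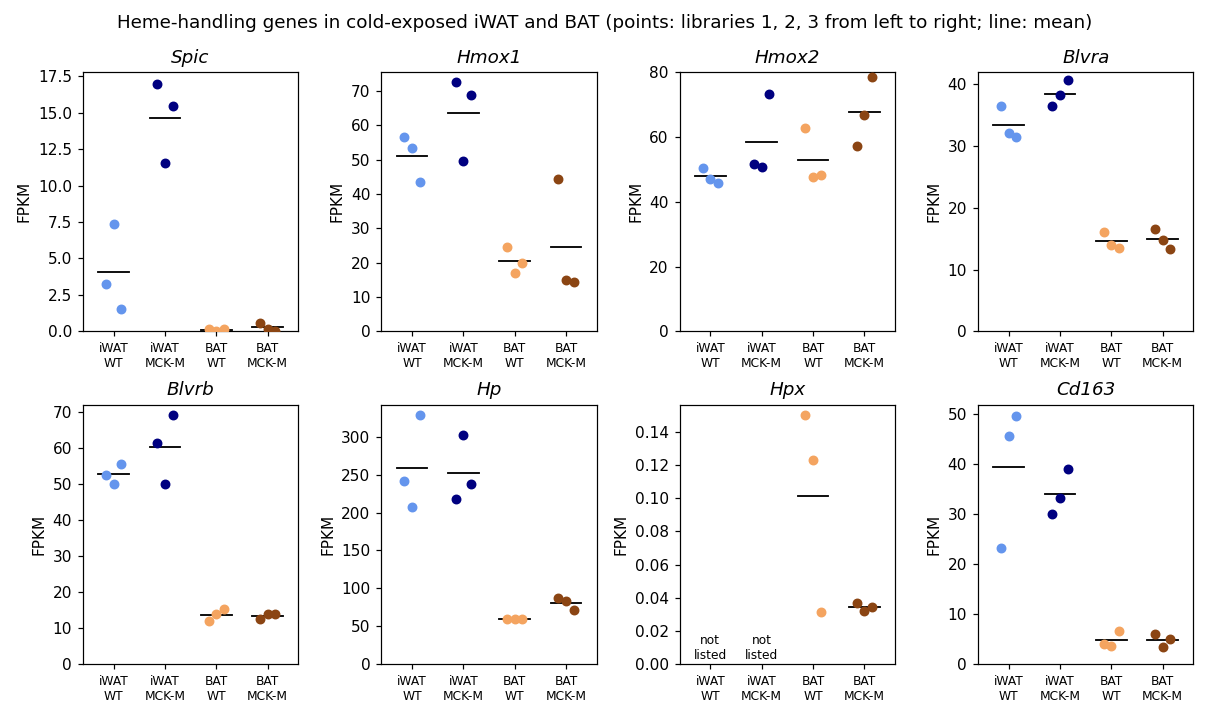
FPKM of the 8 genes in each cold-exposed library of iWAT and BAT, with the group mean as a line and each panel on its own linear axis from 0 (MCK-M, MCK-Musclin). The tables were normalized separately, so genotypes can be compared within a tissue, and *Spic* separates them in iWAT (1.55 to 7.37 against 11.5 to 17.0) while *Hp* separates them in BAT (59.2 to 59.6 against 70.8 to 87.8).

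Markers of lymphoid cells were also higher in MCK-Musclin iWAT. Summed over 9 B cell genes, FPKM was 160 to 311 in WT and 350 to 458 in MCK-Musclin libraries. All 9 had non-overlapping groups with MCK-Musclin higher, beside 17.9% of all genes. For T cells this held for 8 of 9 genes, with sums of 112 to 163 against 218 to 227. For lymph node stroma it held for 4 of the 5 genes that passed the filter, and over all 6 the sums were 150 to 327 against 347 to 564. *Glycam1*, made by the high endothelial venules of lymph nodes, had 7.74 to 9.96 FPKM in WT and 14.9 to 18.1 in MCK-Musclin libraries. No gene of these lists was at 0 in any iWAT library. In white adipose of the tissue table, whose depot is not stated, *Cd79a*, a component of the B cell receptor, had 1.56 FPKM, and in the iWAT libraries 66.9 to 224. The part of these cells in the *Spic* values was not tested.

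Library by library, *Spic* and the lymphoid lists were alike in part. Against the mean of the WT libraries, *Spic* was 0.802 in WT library 1 and 4.18 in MCK-Musclin library 1, while the B cell sum was 1.42 and 1.60 in those libraries, the T cell sum 1.06 and 1.56 and the lymph node stroma sum 1.52 and 1.66. WT library 2 had the highest *Spic* of its group, at 1.82 times the WT mean, with a B cell sum of 0.850 and a T cell sum of 0.791. WT library 3 was lowest of the 6 for *Spic* (0.382), for the B cell sum (0.731) and for the lymph node stroma sum (0.695), with a T cell sum of 1.15. Within the MCK-Musclin group, library 2 had the lowest *Spic* (11.5 FPKM) but the highest B cell sum. That sum was 458 FPKM, against 350 in library 1 and 446 in library 3. The T cell sum (218 FPKM) and the lymph node stroma sum (347) of library 2 were the lowest of that group.

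Other genes of the hand-written list for iron-recycling macrophages were also present in iWAT, and a listed gene does not by itself show which cells it came from. *Marco* had 201, 158 and 64.0 FPKM in WT and 192, 194 and 231 in MCK-Musclin libraries, and *Cd5l* had 30.3, 11.6 and 4.36 against 24.5, 22.7 and 20.0. Both overlapped between genotypes, with WT library 1 within or above the MCK-Musclin range and WT library 3 lowest. *Vcam1* had 29.1 to 33.4 FPKM in WT and 38.1 to 52.4 in MCK-Musclin libraries, a log2 difference of 0.52 (SE 0.14). Of the 7 genes of this list that passed the filter, *Spic* and *Vcam1* were the 2 with groups that did not overlap. The share of all genes with MCK-Musclin higher was 17.9%, and *Spic* is the gene on which the set was chosen. The iron exporter *Slc40a1*, on the same list, had 3.15 to 4.78 FPKM in WT and 3.49 to 5.84 in MCK-Musclin libraries.

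The close relatives of *Spic* gave values of their own. *Spi1*, which encodes PU.1 of myeloid and B cells, had 34.2, 28.6 and 24.0 FPKM in WT and 40.0, 37.0 and 46.3 in MCK-Musclin libraries, a log2 difference of 0.50, and its groups did not overlap. *Spib*, of B cells and plasmacytoid dendritic cells, had 9.27, 5.02 and 5.53 against 7.89, 11.5 and 12.3, and its groups did overlap. Of 12 general macrophage genes, *Lyz2*, which encodes lysozyme, was the 1 with non-overlapping groups, beside 17.9% of all genes with MCK-Musclin higher. It had 320 to 366 FPKM in WT and 366 to 507 in MCK-Musclin libraries, just apart. The summed FPKM of the 12 was 729 to 779 in WT and 1060, 745 and 1080 in the MCK-Musclin group, where library 2 lay within the WT range, as it was for *Hmox1*.

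**Figure D3:**
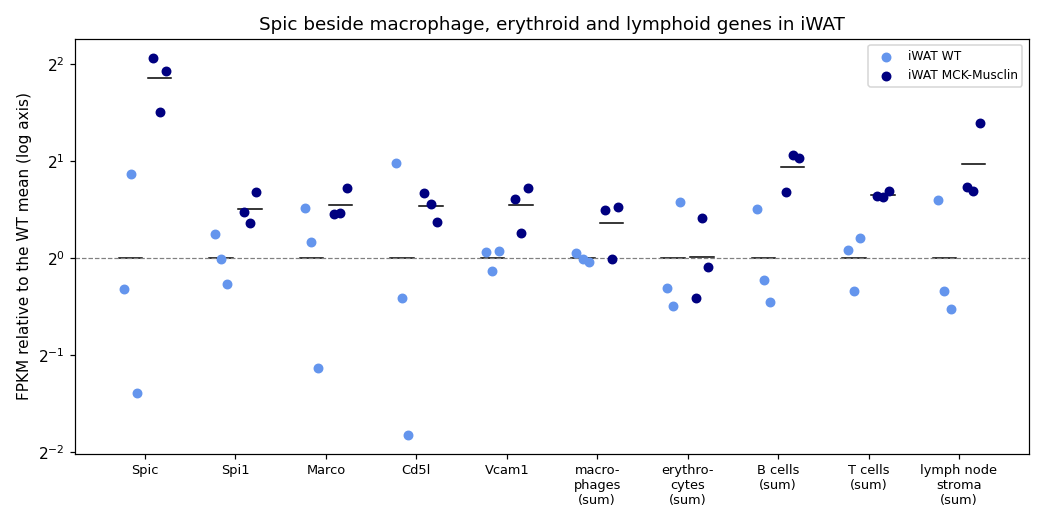
FPKM of each iWAT library divided by the mean of the 3 WT libraries, on a log axis, for *Spic*, 4 other genes and the summed FPKM of 5 marker lists (black lines, group means). *Spic* is at 0.382 to 1.82 in WT and 2.84 to 4.18 in MCK-Musclin libraries, and the sums for lymph node stroma, T cells and B cells also separate the genotypes while the erythrocyte sum does not.

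Around the heme enzymes of iWAT, a few stress-response regulators had lower FPKM in MCK-Musclin mice. *Keap1*, which holds NFE2L2 in the cytoplasm, had 24.6 to 26.0 FPKM in WT and 18.6 to 19.8 in MCK-Musclin libraries, a log2 difference of -0.38. *Nfe2l2* had 40.1 to 45.9 against 33.6 to 36.8 (-0.28), and its target *Nqo1* 3.61 to 3.95 against 2.43 to 3.20 (-0.34). These were the 3 of 10 regulators and targets with groups that did not overlap, all lower, beside 5.44% of all genes with MCK-Musclin lower. After centring on adipocyte markers, *Keap1* stayed apart at -0.17, whereas *Nfe2l2* and *Nqo1* overlapped. *Bach1*, the heme-sensing repressor, had 5.40 to 6.05 and 5.47 to 6.35. All 7 brown and beige adipocyte genes had a log2 difference below 0 (median -1.45). Their sums were 568 to 1063 FPKM in WT and 641, 221 and 115 in MCK-Musclin libraries 1 to 3, so that library 1 lay within the WT range. All 8 general adipocyte genes also had a log2 difference below 0 (median -0.15), with sums of 12847 to 14044 against 11419 to 12969. Beside the same 5.44% of all genes, 1 gene of each list had groups that did not overlap, *Ppargc1a* and *Cidec*. The part of these cells in the values of the regulators was not tested.

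The ferritin chains of iWAT differed between genotypes in opposite directions. *Fth1*, the heavy chain, had 275, 260 and 284 FPKM in WT and 212, 219 and 248 in MCK-Musclin libraries (-0.27). *Ftl1*, the light chain, had 298, 282 and 262 against 306, 302 and 333 (0.16). The groups did not overlap for either, but *Ftl1* overlapped after rescaling to TPM or median-ratio scaling, and *Fth1* after centring on adipocyte markers. *Fech*, the last enzyme of heme synthesis, was the 1 of 9 synthesis genes with non-overlapping groups, beside 5.44% of all genes with MCK-Musclin lower. It had 18.7 to 21.5 FPKM in WT and 15.3 to 18.3 in MCK-Musclin libraries, and it overlapped after the same centring. The hemopexin receptor gene *Lrp1* was lower at 21.5 to 24.0 against 25.7 to 27.1, a log2 difference of -0.19 that became 0.02 after that centring. The heme carrier *Slc46a1* was higher, at 3.68 to 4.90 against 2.92 to 3.40. Of the 8 genes of heme uptake and iron export that passed the filter, *Slc46a1* and *Ftl1* were the 2 higher with non-overlapping groups. *Lrp1* and *Fth1* were the 2 lower. The shares of all genes were 17.9% with MCK-Musclin higher and 5.44% with MCK-Musclin lower. The 5 erythrocyte genes that passed the filter overlapped between genotypes in iWAT, and the summed FPKM of the list was 1627 to 3418 in WT and 1720 to 3062 in MCK-Musclin libraries.

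In BAT, whose genotype comparison the rule for choosing the genes did not use, none of the 6 members tested passed an adjusted p of 0.05 (limma, Benjamini-Hochberg over 10893 genes). The background was 0.00918% of genes, since *Ostn* alone passed. The cutoff of the study for BAT was an unadjusted p under 0.05 and a log2 difference beyond 0.3, from a DESeq2 Wald test. Applied here to the limma values instead, it left 1 of the 6 higher and none lower, against 1.85% and 2.15% of all genes. That gene was *Hp*, which was also the 1 member with non-overlapping groups, against 4.38% of all genes with MCK-Musclin higher and 5.63% lower. The median log2 difference of the 6 was 0.05, and that of all genes tested was -0.01.

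*Hp* had 59.6, 59.5 and 59.2 FPKM in WT and 87.8, 83.2 and 70.8 in MCK-Musclin libraries of BAT. Every MCK-Musclin library was above the WT libraries, which lay almost on top of each other. The means were 59.4 ± 0.223 and 80.6 ± 8.81 (SD, n = 3), a ratio of 1.36. The log2 difference was 0.43 with an SE of 0.10, and its unadjusted limma p of 0.0030 became an adjusted p of 0.93, so *Hp* was not called. Over the 15 alternatives the log2 difference lay between 0.36 and 0.57 and the adjusted p between 0.75 and 1.00. An exact two-sided permutation test gave p = 0.1, the smallest that 3 libraries against 3 allow.

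Hemoglobin genes were higher in the same BAT libraries. *Hba-a1* had 940, 888 and 1157 FPKM in WT and 1364, 1346 and 1430 in MCK-Musclin libraries, a log2 difference of 0.48 (limma adjusted p 0.93). *Hba-a2*, *Hbb-bs* and *Hbb-bt* had log2 differences of 0.48, 0.34 and 0.26, with limma adjusted p of 0.93, 0.97 and 0.97. All 4 had non-overlapping groups, beside 4.38% of all genes with MCK-Musclin higher, and none passed the adjusted threshold. The alpha genes are near-identical copies, as are the beta genes, so how their reads were divided is uncertain. *Alas2*, the erythroid heme synthesis enzyme, had 6.79, 8.25 and 9.55 against 8.65, 9.00 and 7.80 and overlapped, and *Slc4a1*, the anion exchanger of the erythrocyte membrane, was under the filter. The part of blood in the *Hp* values was not tested.

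Skeletal muscle genes were higher in the same libraries too. Their summed FPKM was 263 to 415 in WT and 431 to 964 in MCK-Musclin libraries. Of the 6 genes, 3 had non-overlapping groups, beside 4.38% of all genes with MCK-Musclin higher. *Acta1*, the actin of skeletal muscle, had 46.3 to 82.3 against 88.2 to 223. The part of muscle in the *Hp* values was not tested. Hepatocyte genes were near 0, with sums of 1.07 to 3.40 in WT and 2.12 to 2.45 in MCK-Musclin libraries of BAT against 43173 in liver. The adipocyte list overlapped between genotypes, at 7101 to 7786 against 6804 to 7352.

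**Figure D4:**
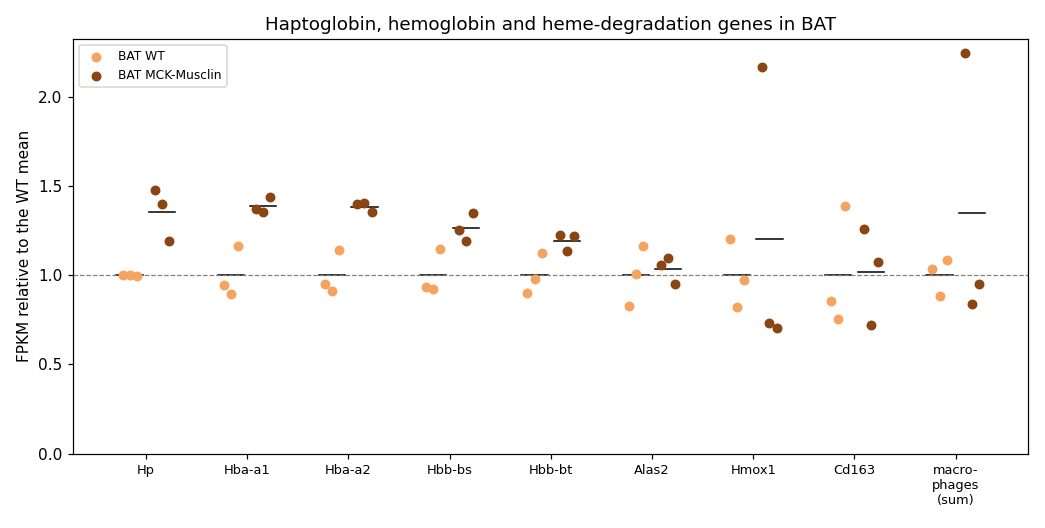
FPKM of each BAT library divided by the mean of the 3 WT libraries for *Hp*, 4 hemoglobin genes, *Alas2*, *Hmox1*, *Cd163* and the summed FPKM of 12 macrophage genes, on a linear axis from 0 (black lines, group means). *Hp* and the hemoglobin genes lie above all WT libraries in every MCK-Musclin library, whereas *Hmox1* and the macrophage sum are high in MCK-Musclin library 1 alone.

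The heme oxygenases and reductases of BAT overlapped between genotypes. *Hmox1* had 24.7, 16.9 and 19.9 FPKM in WT and 44.4, 14.9 and 14.5 in MCK-Musclin libraries. The high value is from library 1, the one with the high macrophage sum, and the other 2 MCK-Musclin libraries lay below all WT libraries. The log2 difference of 0.07 (95% interval -0.86 to 1.00, limma adjusted p 0.996) became -0.44 without that library (limma adjusted p 0.995, from 0.881 to 0.997 over its alternatives). *Hmox2* had 63.0, 47.8 and 48.4 against 57.3, 67.0 and 78.5, a log2 difference of 0.34 (SE 0.15, limma adjusted p 0.97). Its groups were apart without WT library 1 (0.47) or MCK-Musclin library 1 (0.46), both times without passing the adjusted threshold.

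*Blvra* had 16.1, 14.0 and 13.5 FPKM in WT and 16.6, 14.8 and 13.3 in MCK-Musclin libraries of BAT, a log2 difference of 0.03 with a 95% interval of -0.24 to 0.31. *Blvrb* had 12.0, 13.8 and 15.4 against 12.4, 13.9 and 14.0, a log2 difference of -0.02 with an interval of -0.30 to 0.25. *Cd163* had 4.03, 3.55 and 6.52 against 5.91, 3.38 and 5.04, and its interval of -0.53 to 0.58 was the wider one. Both reductases and *Cd163* overlapped between genotypes, and these intervals leave room for differences of either sign.

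*Spic* and *Hpx* fell under the filter in BAT. *Spic* had 0.148, 0 and 0.172 FPKM in WT and 0.567, 0.173 and 0.0435 in MCK-Musclin libraries, overlapping, with an exact two-sided permutation p of 0.4. The highest value is again from MCK-Musclin library 1. *Hpx* had 0.151, 0.123 and 0.0312 against 0.0368, 0.0317 and 0.0345, with the same exact permutation p of 0.4. The lymphoid lists that were higher in MCK-Musclin iWAT overlapped between genotypes in BAT. The B cell sum was 13.7 to 51.1 FPKM in WT and 23.6 to 29.9 in MCK-Musclin libraries, most of it from *Ighm*, the immunoglobulin heavy chain of IgM, at 13.2 to 50.0 over the 6 libraries. For T cells it was 0.942 to 1.84 against 0.993 to 2.02, and for lymph node stroma 1.39 to 3.09 against 1.82 to 5.35, of which the chemokine gene *Cxcl13* had 1.11 to 4.86 while *Glycam1* and *Ccl19* were listed at 0 in every library.

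Among the other genes of the route in BAT, none passed the adjusted threshold. The heme-sensing repressor *Bach1* had 3.01, 3.34 and 3.33 FPKM in WT and 2.64, 2.10 and 2.24 in MCK-Musclin libraries, a log2 difference of -0.35 (limma adjusted p 0.97). *Keap1* had 15.4, 16.9 and 15.5 against 14.1, 14.4 and 12.6 (-0.20, limma adjusted p 0.97). They were the 2 of 9 regulators and targets tested whose groups did not overlap, both lower. Over all genes tested in BAT, the groups did not overlap for 5.63% with MCK-Musclin lower and 4.38% with MCK-Musclin higher. Of 9 heme synthesis genes, *Alas1* (64.9 to 78.8 against 54.2 to 63.4) and *Alad*, which forms porphobilinogen (24.5 to 29.0 against 18.7 to 22.9), were the 2 with non-overlapping groups. Both were lower, at log2 differences of -0.26 and -0.31, beside the same 5.63% of all genes. After centring on adipocyte markers, these 4 genes kept a difference below 0 but overlapped between genotypes, and *Alas1* also overlapped after rescaling to TPM. None of the 7 genes of heme uptake and iron export, and none of the 4 acute phase genes, that passed the filter had groups that did not overlap, and no gene of bilirubin conjugation and transport passed it.

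The macrophage sum in BAT was highest in MCK-Musclin library 1. *Lyz2* had 79.4 FPKM in that library and 17.3 to 28.5 in the other 5. *Csf1r*, the receptor for macrophage colony-stimulating factor, had 2.08, 2.03 and 2.02 in WT and 3.79, 3.41 and 3.78 in MCK-Musclin libraries (limma adjusted p 0.88). *Folr2*, the gene nearest to *Cd163* over the 7 tissues, had 1.01 to 1.51 against 1.67 to 3.07 (limma adjusted p 0.97). These were the genes with non-overlapping groups on the macrophage lists, 1 of 10 and 1 of 7 tested, beside 4.38% of all genes with MCK-Musclin higher. *Cd163* itself showed no such separation.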

How the data were processed

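RNA-Seq reads were filtered, aligned to mm10 (GRCm38) with HISAT2 2.1.0 without using strand, and summarized with StringTie by the authors, who deposited FPKM for each gene and library. The filter behind the 13756 genes of the iWAT table is not stated. That table also holds the authors' own comparison of the genotypes (fold changes, p-values and group means), which was not used. In the BAT table and in that of the tissues, 287 lines were exact repeats of another and were dropped. Positions and exon overlaps were taken from GENCODE M21. Read counts were not analysed here.

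The members and the gene lists were chosen with earlier results of these data known. Named genes were the 8 members, genes of 20 hand-written lists of pathways and cell types, *Ostn*, and the 3 genes most like *Spic*, *Hmox1*, *Hp* and *Cd163* over the tissues. Which list genes to print was decided with their values known. Within each table, log2(FPKM + 1) was fitted with limma 3.58.1 in R 4.3.3 (eBayes with a trend) over the genes whose mean FPKM reached 1, with Benjamini-Hochberg adjustment over all of them. In iWAT only the difference and its SE were kept. On this scale the difference of a gene with low FPKM comes out too small. Groups were called non-overlapping when every library of one lay above every library of the other. List sums leave out the 8 members. Same-numbered WT and MCK-Musclin libraries of a tissue were not treated as pairs, as not every correlation of their deviations exceeded 0.1. With 3 libraries per group this cannot exclude a link between them, and links between iWAT and BAT were not examined. The limma step was also run on simulated data. These had independent noise for each gene and larger planted differences than that of *Hp* in BAT, so the run gives no error rate for the differences reported here. Permutation tests were run with scipy 1.17.1 in Python 3.11.15. The p-values set a difference between groups against the spread between libraries. The alternatives were pseudocounts of 0.1 and 0.01, no filter, a mean FPKM of at least 5, TPM, median-ratio scaling, centring on adipocyte markers, a replicate block, eBayes without a trend and leaving out each library.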

Additional observations from a re-analysis of the deposited data

How the results depend on the processing

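In BAT the number of genes with a limma adjusted p under 0.05 was 1, and 1 to 4 when 1 library was left out, none of them a member. With the replicate number as a block it was 1, with 214 genes higher and 246 lower at the cutoff of the study against 202 and 234, and no call of a member changed. In iWAT the block left all differences as they were. The counts at the cutoff became 102 and 114 with a mean FPKM of at least 5, and 505 and 51 after centring on adipocyte markers, which moved the median of all genes to 0.13 in BAT and 0.27 in iWAT. They were 167 to 274 and 240 to 301 when 1 library was left out. Genes of iWAT with non-overlapping groups, 2183 higher and 663 lower, became 1419 and 1225 with median-ratio scaling, 1728 and 1076 with TPM and 4285 and 33 after centring, and were 2776 to 3131 and 1035 to 1290 when 1 library was left out, since smaller groups overlap less often. In BAT the sign turned for *Hmox1* without WT library 2 (-0.05) or MCK-Musclin library 1, with a range of -0.44 to 0.34 when 1 library was left out. It turned for *Blvra* without WT library 3 (-0.02) or MCK-Musclin library 1, with a range of -0.044 to 0.11. *Blvrb* turned with TPM (0.0033), after centring (0.12) and without WT library 3 or MCK-Musclin library 1 (0.03), with a range of -0.11 to 0.059. *Cd163* turned without WT library 1 (-0.05) or 2 and without MCK-Musclin library 1 (-0.11) or 3 (-0.02), with a range of -0.12 to 0.25. The cause of these changes was not tested. *Hp*, *Hmox2* and the 4 hemoglobin genes kept their direction in all 15 alternatives in BAT, and *Spic* did in iWAT. Except for *Hmox2*, these genes had non-overlapping groups. Their sign could then not turn on leaving out a library or changing the pseudocount, filter, block or trend, so those settings add nothing. In the tissues, 4808 genes were at least 4 times higher in 1 tissue than in the next, and 6133 without the filter. Read depth behind an FPKM is unknown, so no counting interval can be given, and the FPKM of *Spic* in BAT and in the tissues rest on few reads.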
